A study of Mus musculus with 6 samples.

Results

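Epcam, Pkp2, Cdh1, Myo6 and Cd151 are 5 genes best known from the adhesion and the actin cytoskeleton of epithelial cells, and they were examined here in T lymphocytes sorted from the epithelium of the mouse small intestine. They were chosen by name with the differences between the lymphocyte subsets on these same arrays already known, so their values in the subset comparisons are a description and carry no test. They account for 5 of the 8252 genes named on the array and for 12 of its 12422 probe sets that are not controls. A filter on low signal left 10 of the 12 for analysis.

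Intraepithelial lymphocytes are T cells that lie between the epithelial cells of the gut. The 6 arrays came from TCRgd CD8aa cells (a gamma-delta receptor with the CD8 alpha homodimer), TCRab CD8aa cells (an alpha-beta receptor with the same homodimer) and TCRab CD8ab cells (an alpha-beta receptor with the CD8 alpha-beta heterodimer), with 2 arrays each. All cells were taken untreated and freshly isolated from C57BL/6 mice under 8 weeks of age with no other genotype named. In each of 2 experiments all 3 subsets were sorted from 1 pool of 20 mice, so replicates 1 and 2 of every subset stand for experiments 1 and 2, each array averages over many animals, and no animal was measured alone. Some titles spell the gamma-delta subset TCRgb, and the source field, which says TCRgd, was followed.

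The marker of the CD8 beta chain followed the labels, while no marker that tells the gamma-delta from the alpha-beta receptor was checked. Cd8b1, the CD8 beta chain, reached log2 signals of 4.81 and 9.58 in TCRgd CD8aa cells and 4.88 and 7.51 in TCRab CD8aa cells, against 14.11 and 14.75 in TCRab CD8ab cells. Cd3g, a chain of the T cell receptor complex, lay between 12.89 and 14.76 on all arrays. The ratio of 3′ to 5′ actin probe sets, a measure of RNA and label integrity, spanned 40.4 to 52.2 on the arrays of experiment 2, against 1.41 to 1.76 on those of experiment 1. The TCRgd CD8aa array of experiment 2 stood apart from the other 5. The summed signal of 17 enterocyte genes was 32660 on it, against 1013 to 2570 on the others, and the summed signal of 5 genes of secretory epithelium was 16090, against 321.2 to 604.1. Of the B and plasma cell genes 2 of 4, and of the macrophage and dendritic cell genes 2 of 6, were highest on that array, among them Jchain and Lyz2 with log2 signals of 11.97 and 8.24. The summed signal of the B and plasma cell genes was 5133 on it and 702.7 to 1302 on the others, and that of the macrophage and dendritic cell genes was 2011, within the 1101 to 2846 of the others. Members' values are therefore given for each experiment. Fitted results for TCRgd CD8aa cells include this array, and only some, where stated, are also given without it. On arrays of sorted pools, fewer cells carrying a transcript and less of it per cell cannot be told apart.

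Epithelial cells are held together by adherens junctions, desmosomes and tight junctions. Cdh1 encodes E-cadherin, the adhesion receptor of the adherens junction, and on epithelium it is the ligand of the integrin CD103, which holds intraepithelial lymphocytes in place, and of the lymphocyte receptor KLRG1. Epcam encodes an adhesion protein of the lateral epithelial membrane that stabilises claudins, and its loss in the human gut causes congenital tufting enteropathy. Pkp2 encodes plakophilin 2, an armadillo protein of the desmosomal plaque, Myo6 encodes myosin VI, the motor that walks to the minus end of actin filaments and works in endocytosis, and Cd151 encodes a tetraspanin that associates with laminin-binding integrins.

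Promoter sequence was at hand for 3 of the 5 genes, Epcam, Myo6 and Cd151, from RefSeq (mouse build GRCm38.p6). The sequences are shown because Epcam and Myo6 had a shared pattern across the subsets, described next, and Cd151 did not. Each line gives the 250 bases before a gene's start, 5′ to 3′ on the plus strand, which is the strand of all 3 genes. Capitals mark matches to 2 motifs on either strand: the E-box CAGGTG, which reads CACCTG on the other strand and is the form bound by E-cadherin repressors such as ZEB1 and SNAI1, and the GC box GGGCGG, with CCGCCC on the other strand, the form bound by SP1.
Epcam, chr17:87635729-87635978: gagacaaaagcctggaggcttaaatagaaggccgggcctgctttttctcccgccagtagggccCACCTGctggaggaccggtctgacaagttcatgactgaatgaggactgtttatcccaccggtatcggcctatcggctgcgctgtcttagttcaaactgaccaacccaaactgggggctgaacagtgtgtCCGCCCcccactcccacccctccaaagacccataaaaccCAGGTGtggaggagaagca
Myo6, chr9:80164784-80165033: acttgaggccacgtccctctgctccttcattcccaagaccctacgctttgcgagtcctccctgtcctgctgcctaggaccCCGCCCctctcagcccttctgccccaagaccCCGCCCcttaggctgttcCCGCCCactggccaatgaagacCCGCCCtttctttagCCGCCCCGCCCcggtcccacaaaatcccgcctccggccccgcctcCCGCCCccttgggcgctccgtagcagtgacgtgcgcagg
Cd151, chr7:141467112-141467361: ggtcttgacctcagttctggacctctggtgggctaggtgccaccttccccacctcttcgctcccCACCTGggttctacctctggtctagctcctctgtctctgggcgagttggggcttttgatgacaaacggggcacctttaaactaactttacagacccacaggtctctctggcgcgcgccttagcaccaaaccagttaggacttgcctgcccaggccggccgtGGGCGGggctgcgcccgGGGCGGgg
The Epcam window held 2 E-boxes, beginning 187 and 19 bases before the start, and 1 GC box. The Myo6 window held 7 GC boxes, of which a pair overlap by 1 base, and no E-box. The Cd151 window held 1 E-box and 2 GC boxes, while the window of a downstream Cd151 start held neither. Of all 32851 promoter windows of this length, 17.2% held the E-box and 32.7% the GC box. The RUNX core TGTGGT, with ACCACA on the other strand, found in 14% of the windows, and the ETS core CCGGAAG, with CTTCCGG on the other strand, found in 6.91%, were in none of these windows. These matches describe letters, and binding of a factor was not measured.

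Epcam, Pkp2 and Myo6 shared 1 pattern: all were higher in both CD8aa subsets than in TCRab CD8ab cells, in both experiments, and close to each other in TCRgd CD8aa and TCRab CD8aa cells. Epcam (probe set 99582_at) had signals of 350.8 and 693.8 in TCRgd CD8aa cells and 617 and 517.2 in TCRab CD8aa cells in experiments 1 and 2, against 75.9 and 38.1 in TCRab CD8ab cells. All 4 CD8aa arrays lay above both TCRab CD8ab arrays, with no overlap. In TCRgd CD8aa cells the level was 4.62-fold that of TCRab CD8ab cells in experiment 1 and 18.2-fold in experiment 2, a mean log2 difference of 3.20 ± 0.50. In TCRab CD8aa cells it was 8.13-fold and 13.6-fold, a mean log2 difference of 3.39 ± 0.50. Errors of log2 differences, here and in what follows, are standard errors of a limma fit with the experiment as a block. Between the CD8aa subsets the order of Epcam turned round, with 0.568-fold in TCRgd CD8aa against TCRab CD8aa cells in experiment 1 and 1.34-fold in experiment 2.

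Pkp2 was read by 3 probe sets. On 104337_f_at its signal was 1039 and 1795 in TCRgd CD8aa cells and 986.5 and 2323 in TCRab CD8aa cells, against 101 and 135.8 in TCRab CD8ab cells. The lowest CD8aa array was thus above the highest TCRab CD8ab array by several fold, as for Epcam. The log2 difference from TCRab CD8ab cells was 3.54 ± 0.34 for TCRgd CD8aa cells, 10.3-fold in experiment 1 and 13.2-fold in experiment 2. For TCRab CD8aa cells it was 3.69 ± 0.34, 9.77-fold and 17.1-fold. The second probe set, 104338_r_at, read 213.5 and 181.2 in TCRgd CD8aa cells and 176.9 and 162.2 in TCRab CD8aa cells, against 28.5 and 14.1 in TCRab CD8ab cells. As on the first, all 4 CD8aa arrays were above both TCRab CD8ab arrays, while the order of the CD8aa subsets in experiment 2 was the opposite of that on the first. The last of these values lies under the signal of 15.3 at which low values were floored, so the fold on it is held down by the floor. The third, 162194_r_at, was under the floor on 5 arrays, read 25.2 on the TCRab CD8aa array of experiment 2, and did not pass the filter.

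Myo6 was also read by 3 probe sets. The signal of 162245_f_at was 844.4 and 8107 in TCRgd CD8aa cells and 1054 and 8691 in TCRab CD8aa cells, against 157.2 and 567.4 in TCRab CD8ab cells. All arrays of experiment 2 were above those of experiment 1 of the same subset, and within each experiment both CD8aa arrays were above the TCRab CD8ab array. The differences from TCRab CD8ab cells were 5.37-fold and 14.3-fold in TCRgd CD8aa cells and 6.7-fold and 15.3-fold in TCRab CD8aa cells. On 96560_at the signal was 227.2 and 482.1 in TCRgd CD8aa cells and 317 and 654.5 in TCRab CD8aa cells, against 36.7 and 76.5 in TCRab CD8ab cells. This probe set gave nearly equal folds in the experiments, 6.19 and 6.3 for TCRgd CD8aa cells and 8.64 and 8.56 for TCRab CD8aa cells. The third, 92382_at, read 214.9 and 93.59 in TCRgd CD8aa cells and 102 and 116.5 in TCRab CD8aa cells, against 55.4 and 77.6 in TCRab CD8ab cells. It kept the order of the other Myo6 probe sets against TCRab CD8ab cells with smaller log2 differences of 1.11 ± 0.58 for TCRgd CD8aa and 0.73 ± 0.58 for TCRab CD8aa cells.

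**Figure D1:**
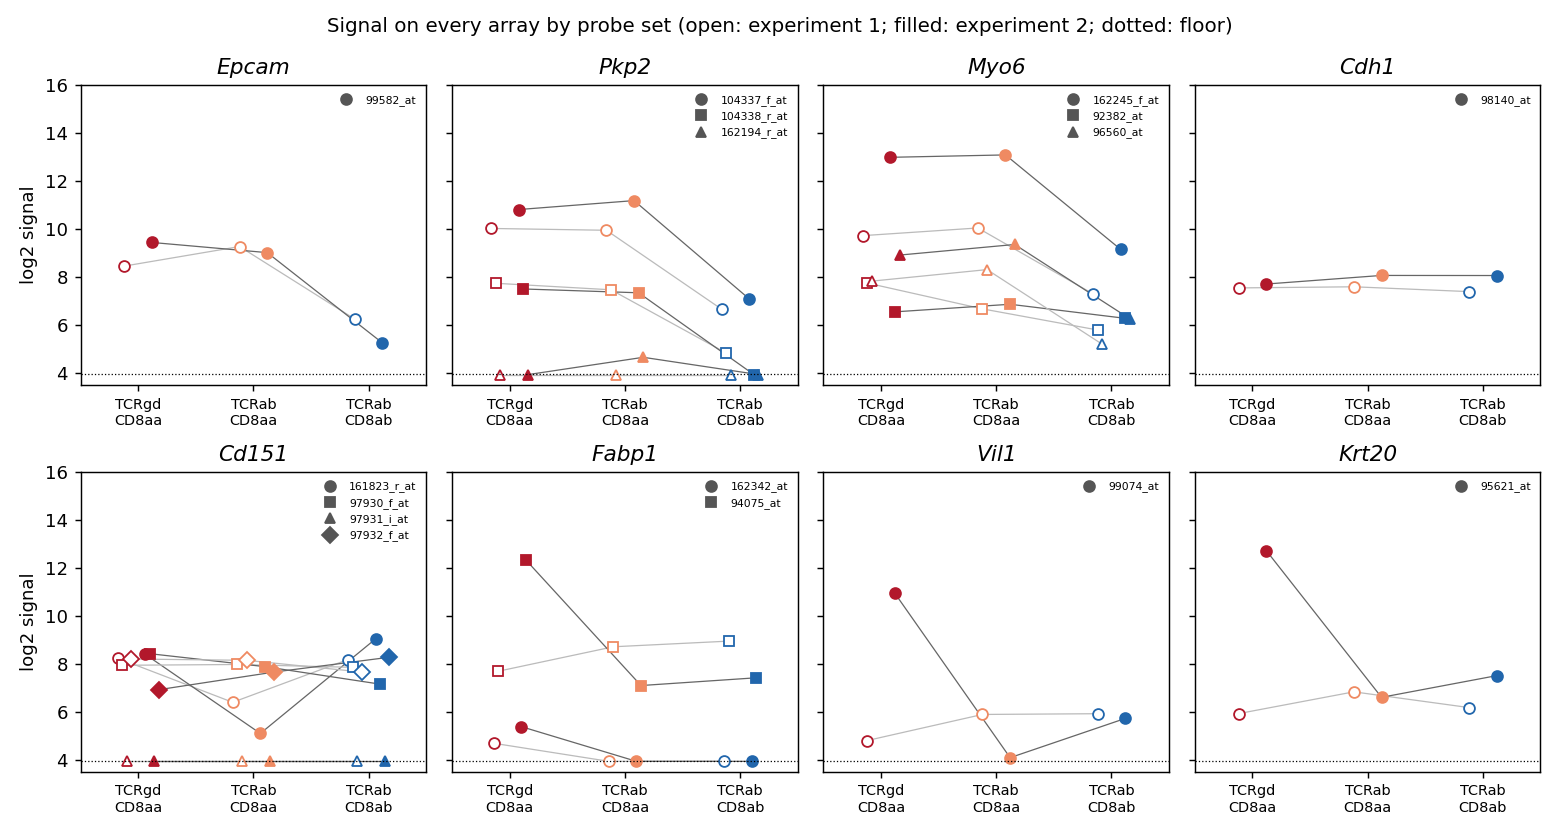
Log2 signal (y axis) by subset (x axis) for every probe set of the 5 genes and of Fabp1, Vil1 and Krt20, with 1 point per array (open for experiment 1, filled for experiment 2), a line joining the arrays of 1 experiment, and the floor dotted. Epcam and the brightest Pkp2 and Myo6 probe sets drop at the TCRab CD8ab arrays in both experiments, Cdh1 is level, the Cd151 probe sets differ in order, and the enterocyte genes peak on the TCRgd CD8aa array of experiment 2.

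Cdh1 did not share this pattern. Its single probe set, 98140_at, read 186.7 and 209 in TCRgd CD8aa cells and 193 and 267.8 in TCRab CD8aa cells, against 167.8 and 267.1 in TCRab CD8ab cells. The 3 subsets overlapped. The log2 difference from TCRab CD8ab cells was -0.10 ± 0.40 for TCRgd CD8aa cells and 0.10 ± 0.40 for TCRab CD8aa cells. The signal lay above the floor on all 6 arrays. On the 5 arrays other than TCRgd CD8aa of experiment 2, the enterocyte genes Fabp1 (94075_at), Vil1 and Krt20 read 136.4 to 491.8, 17 to 60.5 and 60.7 to 181.6. Whether enterocyte RNA contributes to the Cdh1 signal was not tested.

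Cd151 gave a different answer with each probe set. On 161823_r_at the signal was 301.4 and 336.9 in TCRgd CD8aa cells and 84.1 and 34.2 in TCRab CD8aa cells, against 288.9 and 524.1 in TCRab CD8ab cells. Both TCRab CD8aa arrays were below all others, with a log2 difference from TCRab CD8ab cells of -2.86 ± 0.54, and TCRgd CD8aa cells exceeded TCRab CD8aa cells by a log2 difference of 2.57 ± 0.54. The other readable Cd151 probe sets did not show this. On 97930_f_at the signal was 244.9 and 342.3 in TCRgd CD8aa cells and 250.6 and 235.4 in TCRab CD8aa cells, against 230.9 and 142 in TCRab CD8ab cells. On 97932_f_at it was 293.4 and 121.2 in TCRgd CD8aa cells and 282.6 and 201.4 in TCRab CD8aa cells, against 201.7 and 308.9 in TCRab CD8ab cells. Their log2 differences for TCRab CD8aa against TCRab CD8ab cells were 0.42 ± 0.43 and -0.07 ± 0.50, near 0 within the error. The fourth, 97931_i_at, was under the floor on all 6 arrays and did not pass the filter. The level of Cd151 across subsets is therefore uncertain.

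**Figure D2:**
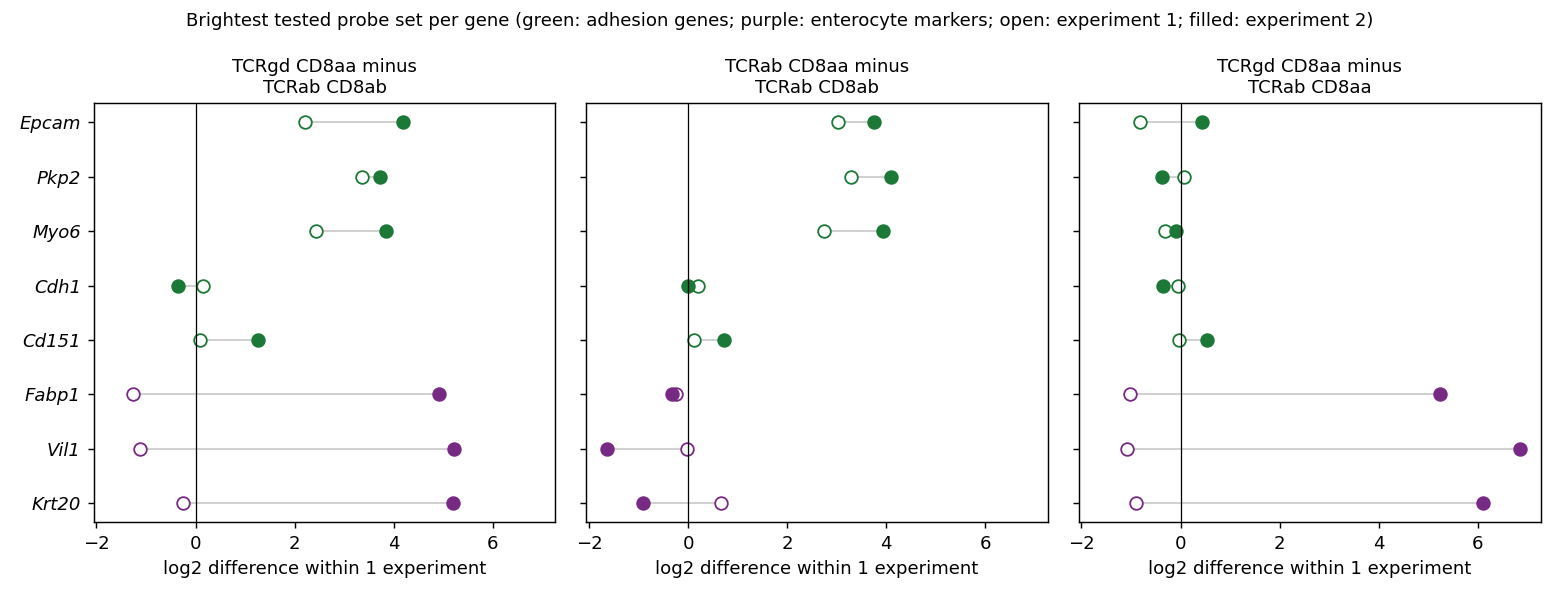
Log2 difference within each experiment (x axis; open for experiment 1, filled for experiment 2) of the brightest tested probe set of each gene (y axis; adhesion genes green, enterocyte genes purple), with 1 panel for each subset comparison. Epcam, Pkp2 and Myo6 lie between 2.21 and 4.19 against TCRab CD8ab cells in both experiments, while Fabp1, Vil1 and Krt20 lie between 4.91 and 6.84 in experiment 2 of the TCRgd CD8aa comparisons and below 0 there in experiment 1.

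The members' differences can be set beside those of all probe sets. A log2 difference of 2 or more in both experiments was reached by 5 of the 10 member probe sets for TCRgd CD8aa against TCRab CD8ab cells, against 0.422% of the 8299 probe sets tested (35). For TCRab CD8aa against TCRab CD8ab cells the count was again 5 of 10, against 0.446% (37). For TCRgd CD8aa against TCRab CD8aa cells it was 0 of 10, against 0.0964% (8). Both arrays lay above both TCRab CD8ab arrays for 7 of 10 member probe sets in TCRgd CD8aa cells, where the share over all probe sets was 9.39%, and for 7 of 10 in TCRab CD8aa cells, where it was 10%. Both TCRgd CD8aa arrays lay above both TCRab CD8aa arrays for 2 of 10, with a share over all probe sets of 7.78%. Both arrays lay below in 0 of 10 for TCRgd CD8aa against TCRab CD8ab (10.4% over all), in 1 of 10, Cd151 161823_r_at, for TCRab CD8aa against TCRab CD8ab (12.8%), and in 0 of 10 between the CD8aa subsets (6.64%). The median member log2 difference from TCRab CD8ab cells was 1.88 in each CD8aa subset, beside medians over all probe sets of -0.06 for TCRgd CD8aa and -0.08 for TCRab CD8aa. Without the TCRgd CD8aa array of experiment 2, the member median for TCRgd CD8aa cells was 2.14 in the blocked fit, beside -0.02 over all probe sets. Because the members were selected on these comparisons, nothing is read from these shares.

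The number of probe sets past a 5% false discovery rate depended on the experiment as a block. Without it, limma called 0 of 8299 in each subset comparison (0%), with 168 at an unadjusted p under 0.05 for TCRgd CD8aa against TCRab CD8ab, 187 for TCRab CD8aa against TCRab CD8ab and 34 between the CD8aa subsets. With it, limma called 46 probe sets (0.554%) for TCRgd CD8aa against TCRab CD8ab, of which 28 were higher (0.337%) and 18 lower (0.217%), and 68 (0.819%) for TCRab CD8aa against TCRab CD8ab, of which 43 were higher (0.518%) and 25 lower (0.301%). In each of these the higher ones held the same 5 member probe sets of 3 genes: Epcam, Pkp2 (104337_f_at and 104338_r_at) and Myo6 (162245_f_at and 96560_at). Their presence there is a description and no test, since the members were chosen with these differences known. Between the CD8aa subsets the blocked fit called 2 probe sets (0.0241%), 1 higher and 1 lower (0.012% each), and no member. Without the TCRgd CD8aa array of experiment 2, TCRgd CD8aa cells rest on 1 array. Their blocked log2 differences from TCRab CD8ab cells were then 3.57 ± 0.60 for Pkp2 104337_f_at and 2.72 ± 0.56 for Myo6 162245_f_at. They were 2.39 ± 0.71 for Epcam, 3.10 ± 0.97 for Pkp2 104338_r_at and 2.63 ± 0.74 for Myo6 96560_at. The differences of TCRab CD8aa from TCRab CD8ab cells do not use that array, so leaving it out does not change them and does not test them.

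The enterocyte genes did not follow the subsets. Fabp1 (94075_at), a fatty acid carrier of enterocytes, had signals of 206.1 and 5134 in TCRgd CD8aa cells and 417.9 and 136.4 in TCRab CD8aa cells, against 491.8 and 170.7 in TCRab CD8ab cells. Vil1, which encodes villin of the microvillus core, read 27.9 and 1953 in TCRgd CD8aa cells and 59.2 and 17 in TCRab CD8aa cells, against 60.5 and 52.8 in TCRab CD8ab cells. Krt20, a keratin of mature enterocytes, read 60.7 and 6705 in TCRgd CD8aa cells and 113.8 and 97.1 in TCRab CD8aa cells, against 72.2 and 181.6 in TCRab CD8ab cells. On each of these probe sets 1 array, TCRgd CD8aa of experiment 2, stood above the other 5. A second Fabp1 probe set, 162342_at, read 25.8 and 41.7 in TCRgd CD8aa cells, was under the floor on the other 4 arrays, and did not pass the filter. In experiment 1 the tested probe sets of all 3 enterocyte genes were lower in TCRgd CD8aa than in TCRab CD8ab cells, with log2 differences of -1.26, -1.12 and -0.25, whereas Epcam, Pkp2 (104337_f_at) and Myo6 (162245_f_at) were higher by 2.21, 3.36 and 2.43.

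The same array gives a second comparison. On the TCRgd CD8aa array of experiment 2, Fabp1, Vil1 and Krt20 were 37.6-fold, 115-fold and 69.1-fold the TCRab CD8aa array of that experiment, and 15 of the 17 enterocyte genes on the array were higher by a log2 difference of 2 or more, against 3.72% of all probe sets tested. Among the members, taking for each the probe set with the highest mean log2 signal, none was: the log2 differences were 0.42 for Epcam, -0.37 for Pkp2, -0.10 for Myo6, -0.36 for Cdh1 and 0.54 for Cd151 (97930_f_at). In experiment 1 they were -0.815, 0.075, -0.32, -0.048 and -0.033 in the same order. None of 5 is near the share over all probe sets, so nothing is read from that count. Another Cd151 probe set, 161823_r_at, did pass the mark of 2 in experiment 2, at 3.30. It was also higher in TCRgd CD8aa than in TCRab CD8aa cells in experiment 1, by 1.84. Of other junction genes on the array, 2 of 10 desmosomal, 1 of 9 adherens junction and 4 of 12 tight junction genes were higher by a log2 difference of 2 or more in experiment 2, with medians of 0.24, 0.28 and 1.56, and none was in experiment 1. The tight junction genes F11r and Tjp1 were 5.37-fold and 7.11-fold the TCRab CD8aa array. The desmosomal cadherin gene Dsc2 was at least 17.9-fold and Cldn7 at least 17.8-fold, since both were under the floor on the TCRab CD8aa array and neither passed the filter. Whether enterocyte RNA contributes to the members' signal on that array was not tested.

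**Figure D3:**
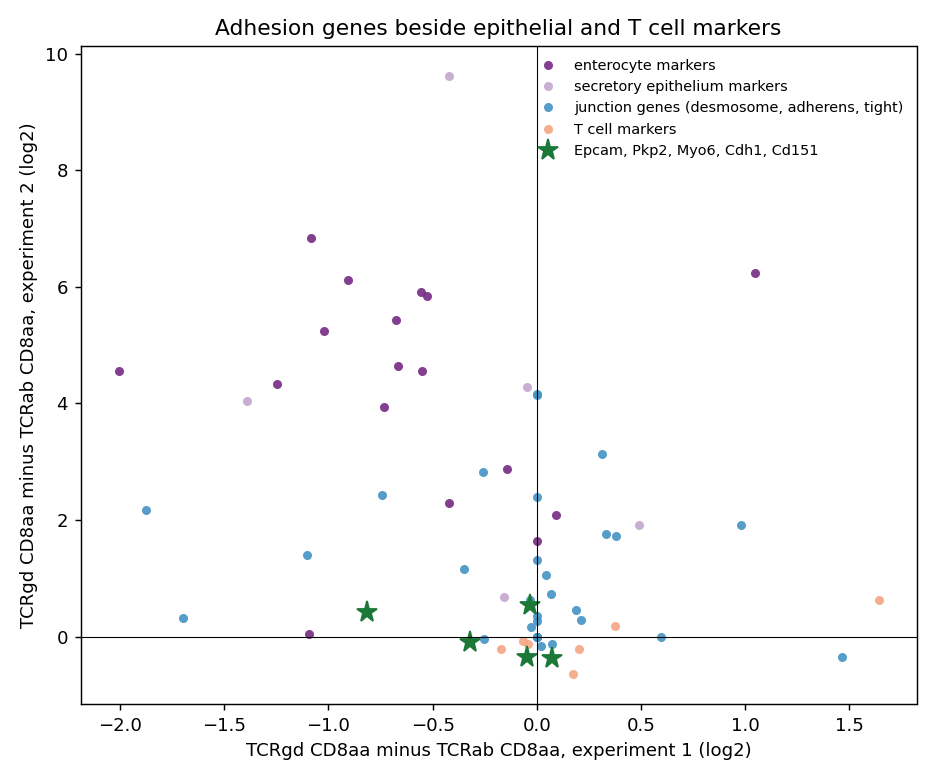
Log2 difference of TCRgd CD8aa from TCRab CD8aa cells in experiment 1 (x axis) and experiment 2 (y axis), with 1 point per gene of the enterocyte, secretory, junction and T cell lists and a star for the brightest probe set of each of the 5 genes. The enterocyte genes reach 6.84 in experiment 2, while the 5 stars lie between -0.37 and 0.54 there, beside the T cell genes.

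The partners of these genes gave few calls. Each list gene was read on 1 probe set, the brightest, taken among those past the filter where there was one. Other probe sets of the same genes are not given. Of 11 other desmosomal genes, 10 were on the array, 6 were tested, and in the blocked limma fit 1 rose in TCRab CD8aa cells. This was Pkp4 (96187_at), a plakophilin relative that also binds at adherens junctions, with signals of 5972 and 7322 in TCRgd CD8aa cells and 7128 and 7495 in TCRab CD8aa cells, against 2664 and 2331 in TCRab CD8ab cells. Its log2 difference was 1.55 ± 0.29 for TCRab CD8aa against TCRab CD8ab cells (adjusted p = 0.0483), and 1.41 ± 0.29 for TCRgd CD8aa (adjusted p = 0.0992), which became 1.23 ± 0.49 without the TCRgd CD8aa array of experiment 2. Perp, which encodes a tetraspan protein of desmosomes, read 882.4 and 2184 in TCRgd CD8aa cells and 903 and 1421 in TCRab CD8aa cells, against 455.2 and 590.1 in TCRab CD8ab cells. All 4 CD8aa arrays of Perp were above both TCRab CD8ab arrays, and the gene did not pass the blocked limma test (adjusted p = 0.18 for TCRgd CD8aa and 0.273 for TCRab CD8aa). Dsp, which encodes desmoplakin, the plaque protein bound by plakophilins, read 569 and 2064 in TCRgd CD8aa cells and 579.9 and 1836 in TCRab CD8aa cells, against 472.1 and 773.8 in TCRab CD8ab cells, and did not pass the test. The median log2 difference of the 6 tested desmosomal genes was 0.87 in TCRgd CD8aa cells, or 0.63 without the TCRgd CD8aa array of experiment 2, and 0.14 in TCRab CD8aa cells.

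Of 18 unconventional myosins and myosin VI adaptors, 12 were on the array, 11 were tested, and 1 rose in TCRab CD8aa cells in the blocked limma fit. This was Myo1e (92277_at), a membrane-binding myosin of class I, at 211.5 and 161 in TCRgd CD8aa cells and 392.2 and 313.3 in TCRab CD8aa cells, against 35 and 45.5 in TCRab CD8ab cells. Its log2 difference was 3.14 ± 0.47 for TCRab CD8aa (adjusted p = 0.019) and 2.21 ± 0.47 for TCRgd CD8aa cells (adjusted p = 0.118), or 2.42 ± 0.80 without the TCRgd CD8aa array of experiment 2. All 4 CD8aa arrays of Pkp4 and of Myo1e lay above both TCRab CD8ab arrays. Neither gene was called without the block, and with it Pkp4 was called under 6 and Myo1e under 8 of 12 settings. Median log2 differences of the 11 tested genes were 0.53 in TCRgd CD8aa cells, or 0.44 without that array, and 0.04 in TCRab CD8aa cells.

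On all 6 arrays, no gene of the other partner lists passed on its brightest probe set in any subset comparison, by limma with the block or without it. In the blocked fit, 7 of their 29 probe sets were at an unadjusted p under 0.05 for TCRgd CD8aa against TCRab CD8ab, 5 for TCRab CD8aa against TCRab CD8ab and 1 between the CD8aa subsets. The share of all probe sets at that mark in the blocked fit was not counted, so nothing is read from these numbers. Cd44 and the tetraspanin gene Tspan31 were lower in TCRab CD8aa than in TCRab CD8ab cells, at log2 -2.44 ± 0.59 and -2.03 ± 0.46. On all 6 arrays neither passed. The TCRgd CD8aa arrays do not enter these 2 differences, but they enter the shared estimate of the spread. Whether Cd44 and Tspan31 pass depends on the TCRgd CD8aa array of experiment 2 being in the fit, so their calls are not settled. Without the TCRgd CD8aa array of experiment 2, the median log2 difference of the 29 for TCRgd CD8aa against TCRab CD8ab cells was -0.01, beside -0.02 over all probe sets. The lists were adherens junction (5 tested of 12), tight junction (4 of 18), EpCAM and matriptase partners (1 of 6), tetraspanins (12 of 15), laminin-binding integrins (4 of 5) and E-cadherin receptors of lymphocytes (3 of 3). Cd44, the hyaluronan receptor that can form complexes with EpCAM, had signals of 70.3 and 44.2 in TCRgd CD8aa cells and 56.6 and 21.3 in TCRab CD8aa cells, against 309.1 and 115.4 in TCRab CD8ab cells, the opposite order to Epcam, with adjusted p of 0.409 for TCRgd CD8aa and 0.139 for TCRab CD8aa in the blocked limma fit. Itgae, which encodes the CD103 alpha chain that binds E-cadherin, was 13130 and 7054 in TCRgd CD8aa cells and 13520 and 7682 in TCRab CD8aa cells, against 12250 and 6999 in TCRab CD8ab cells. Its subsets differed little within each experiment.

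A comparison that the choice of members did not use is that between the experiments, fitted with the subset as a covariate. The 3 arrays of an experiment came from 1 pool, so 1 pool is compared with 1 other. Errors and adjusted p here measure agreement between subsets and not the spread between pools. In this limma fit 2827 of 8299 probe sets (34.1%) differed, 1138 higher (13.7%) and 1689 lower (20.4%) in experiment 2. Of the 10 member probe sets 3 were higher and 0 lower. Myo6 162245_f_at was higher in experiment 2 by a log2 difference of 2.72 ± 0.31 (adjusted p = 0.000396), with 3.26 in TCRgd CD8aa, 3.04 in TCRab CD8aa and 1.85 in TCRab CD8ab cells. Myo6 96560_at was higher by 1.06 ± 0.33 (adjusted p = 0.0324), by 1.05 to 1.09 in every subset. Pkp2 104337_f_at was higher by 0.82 ± 0.28 (adjusted p = 0.0477). The other tested probe sets of these genes did not follow. Pkp2 104338_r_at was at -0.42 ± 0.44 (adjusted p = 0.5) and was lower in experiment 2 in every subset. Myo6 92382_at was at -0.17 ± 0.47 (adjusted p = 0.808). The calls of Myo6 96560_at and Pkp2 104337_f_at were lost when any 1 CD8aa array was left out, and all 3 calls were lost without the filter on low signal. Epcam did not pass, at -0.09 ± 0.41 (adjusted p = 0.89), and its sign differed between subsets: 0.98 in TCRgd CD8aa, -0.26 in TCRab CD8aa and -0.99 in TCRab CD8ab cells. Cdh1 did not pass either, at 0.44 ± 0.33 (adjusted p = 0.336). The 3′ to 5′ actin ratio moved with the experiment, so pool, occasion and RNA quality cannot be told apart.

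**Figure D4:**
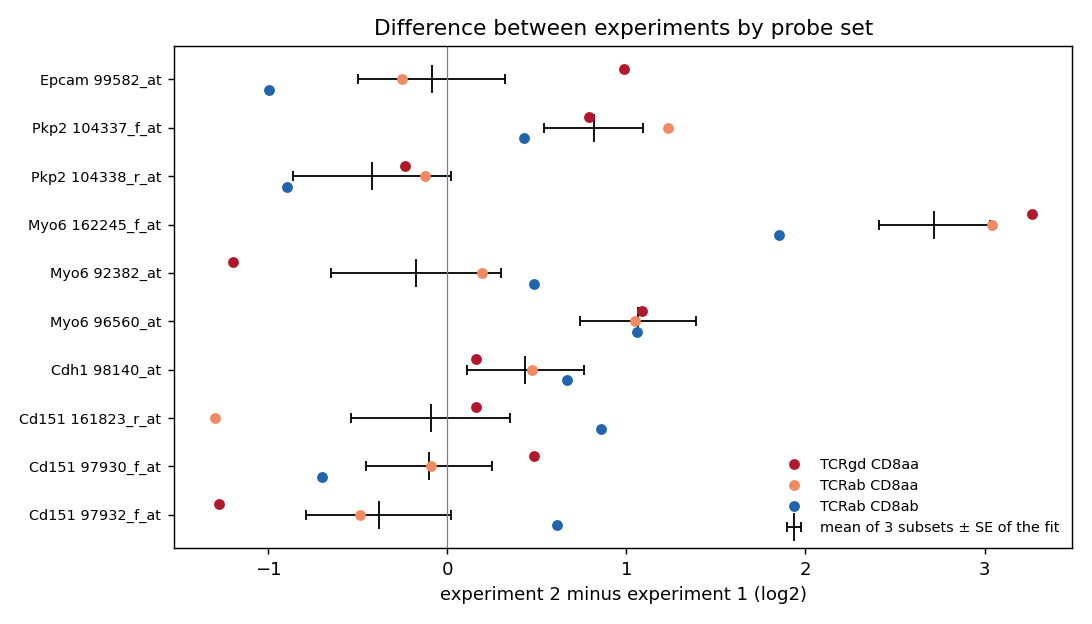
Log2 difference of experiment 2 from experiment 1 (x axis) for each of the 10 tested probe sets (y axis), with 1 point per subset and a bar for the fitted mean ± its standard error. Myo6 162245_f_at (2.72), Myo6 96560_at (1.06) and Pkp2 104337_f_at (0.82) lie above 0 in every subset. Pkp2 104338_r_at (-0.42) lies below 0 in every subset, and Myo6 92382_at (-0.17) and Epcam lie on both sides of 0.

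The members also had near neighbours in pattern. For each, the log2 signal of its brightest probe set was centred on the mean of the 3 arrays of each experiment, and the root mean square distance between profiles was taken over the 6 arrays, first among the members and then to all other named probe sets. Epcam and Myo6 were 0.21 apart, Pkp2 and Myo6 0.283, and Epcam and Pkp2 0.419. Cdh1 and Cd151 were 0.47 apart, and the other pairs of members were 1.286 to 1.72 apart. Because the members were chosen with the subset differences known, their closeness and the neighbours they share are a description and no test. Outside the members, the gene nearest to Epcam was Tnfrsf21, a death receptor of the TNF receptor family, at 0.27. Osbpl5, Adh1, Lat2 and Hhex followed at 0.375 to 0.484. The median over all probe sets was 1.678, near the distance of 1.608 between Epcam and a flat line. Nearest to Myo6 outside the members were Tnfrsf21 at 0.252, Osbpl5 at 0.285, Lat2 at 0.301, Tbc1d24 at 0.318 and Zdhhc14 at 0.368. Nearest to Pkp2 outside the members were Tbc1d24 at 0.352, Klrb1a at 0.353, Adh1 at 0.387, Tnfrsf21 at 0.406 and Lat2 at 0.463. Lat2 encodes a LAT-like adaptor and Klrb1a a lectin receptor of the NKR-P1 family. Tnfrsf21 and Lat2 are among the 5 nearest genes outside the members for Epcam, Pkp2 and Myo6 alike. Cdh1 and Cd151 (97930_f_at) were nearly flat, with root mean square distances from a flat line of 0.133 and 0.369, so their neighbours were simply other flat genes, Anapc1 at 0.024 for Cdh1 and Otud4 at 0.043 for Cd151.

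**Figure D5:**
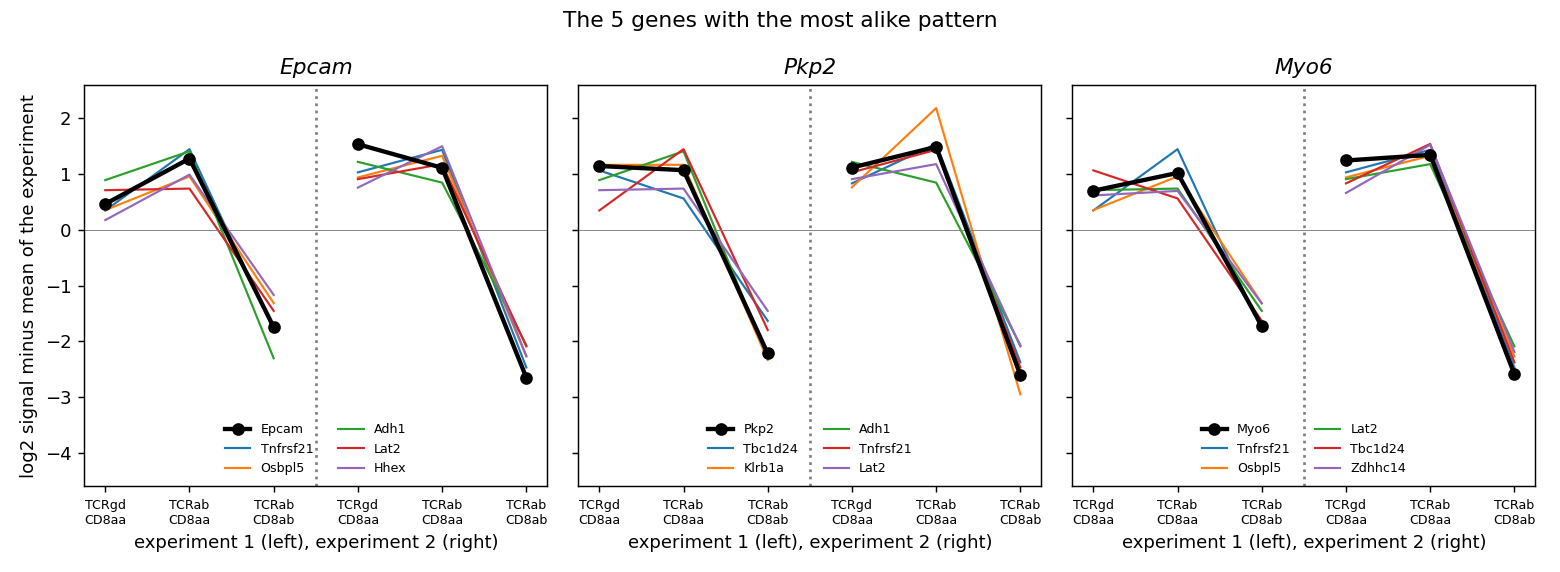
Log2 signal minus the mean of the 3 arrays of the experiment (y axis) for Epcam, Pkp2 and Myo6 (black) and the 5 genes most like each (coloured), with the arrays of experiment 1 and then experiment 2 along the x axis. The CD8aa arrays lie above the TCRab CD8ab arrays for each gene shown.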

How the data were processed

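The deposited intensities were MAS5 signals per probe set, per the submitters' processing notes; version and scaling were not given in the sources used here, and the intensity tables' trimmed means came to 500.4 on every array. MAS5 sets a probe set's signal from its perfect-match and mismatch probes, so low signals are noisy, and the number of arrays, 2 a subset, limits the precision. Signals were scaled to a common trimmed mean (2% off each end), floored at the 20th percentile (15.3) and log2-transformed. Probe sets over the 40th percentile (56.4) on at least 2 arrays were tested, 8299 of 12488. limma 3.58.1 in R 4.3.3 (lmFit, eBayes with an intensity trend) gave Benjamini-Hochberg adjusted p over all of them, called under 0.05. The main fit had no block, and the experiment was the block in the alternative. The replicate number pairs the arrays, because per the labels each experiment used 1 pool. Deviations from group means correlated at 0.618, 0.713 and 0.603 between subsets. The pools are separate, but p-values rest on 2 of them.

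Gene symbols came from the platform annotation, updated through Entrez IDs: 10833 probe sets had 1 symbol, 396 had several and were not named, and 1193 were not in the annotation. Members, gene lists and named genes were chosen with earlier results of these data known. Named were all member probe sets, Fabp1, Vil1 and Krt20, list genes that were called and at most 4 others of smallest p, and the 5 genes most like each member; other list genes, chosen after their values were seen, are given where they bear on the TCRgd CD8aa array of experiment 2. The fit was tested on simulated data. Alternatives were quantile normalization, other floors, no filter, no intensity trend, and leaving out each array.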

Additional observations from a re-analysis of the deposited data

How the results depend on the processing

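Epcam, Pkp2 104337_f_at and Myo6 162245_f_at and 96560_at stayed higher in both CD8aa subsets than in TCRab CD8ab cells under all 23 alternatives. Of these, the block, the filter, the trend and the floors cannot change the log2 differences of these probe sets. Nor can leaving out an array of the subset not compared. Only quantile normalization and leaving out an array of a compared subset could move them. The log2 difference for TCRgd CD8aa cells ran from 2.39 to 4.0 for Epcam, 3.15 to 3.94 for Pkp2, 1.5 to 4.76 for Myo6 162245_f_at and 2.10 to 3.19 for Myo6 96560_at; for TCRab CD8aa cells it ran from 2.71 to 4.07, 3.07 to 4.31, 1.82 to 4.86 and 2.57 to 3.63. The calls were less stable, and those of members in the subset comparisons are no test, because the members were chosen with these differences known. For TCRgd CD8aa against TCRab CD8ab, TCRab CD8aa against TCRab CD8ab and TCRgd CD8aa against TCRab CD8aa in that order, limma called 46, 68 and 2 probe sets with the experiment as a replicate block, 50, 72 and 1 with quantile normalization added, 45, 61 and 2 with a floor at the 10th percentile, 46, 67 and 2 at the 30th, and 3, 6 and 1 without the intensity trend. With the block and without the filter, and under every setting without the block, all 3 counts were 0, and no member was called in the blocked fit without the filter or without the trend; the cause was not tested. Leaving out each array with the block gave 30 to 193, 22 to 182 and 1 to 114 calls, where a lone array was assumed to vary like the other subsets. Dropping a TCRgd CD8aa array left 193, 182 and 114 calls (replicate 1) or 66, 167 and 5 (replicate 2). Dropping a TCRab CD8aa array left 54, 34 and 2 (replicate 1) or 52, 22 and 1 (replicate 2), and dropping a TCRab CD8ab array left 97, 173 and 2 (replicate 1) or 30, 64 and 2 (replicate 2). Epcam, Pkp2 104338_r_at and Myo6 96560_at lost their blocked calls in TCRgd CD8aa cells without TCRgd CD8aa replicate 2 or TCRab CD8ab replicate 2, and in TCRab CD8aa cells without either TCRab CD8aa array, and Epcam and Pkp2 104338_r_at there also without TCRab CD8ab replicate 2. Pkp2 104338_r_at was called in TCRab CD8aa cells in 5 of the 12 blocked settings, lost also at the floors of the 10th and 30th percentiles. Cd151 161823_r_at was called lower in TCRab CD8aa than in TCRab CD8ab cells in 4 of the 12, and higher in TCRgd CD8aa than in TCRab CD8aa cells in 1. In the comparison of experiments the count was 506 without the filter and 1880 to 2941 with 1 array left out, lowest without TCRab CD8aa replicate 2. Pkp2 104337_f_at was no longer called there with quantile normalization, without the filter, without the trend or without any 1 CD8aa array, nor Myo6 96560_at without the filter or without any 1 CD8aa array, nor Myo6 162245_f_at without the filter. Members near 0 changed sign there: with quantile normalization Cd151 161823_r_at was at 0.217 and 97930_f_at at 0.158. Over the arrays left out in turn, Epcam ran from -0.62 to 0.36, Myo6 92382_at from -0.50 to 0.34, and Cd151 161823_r_at, 97930_f_at and 97932_f_at from -0.57 to 0.51, -0.40 to 0.20 and -0.88 to 0.063.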

Other observations

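Transcription factors that act on these genes elsewhere were also measured. Of 8 repressors of E-cadherin, 6 were on the array, 4 were tested, and limma called none in any subset comparison, with the block or without it, and none was at an unadjusted p under 0.05. Zeb1, a zinc finger repressor of Cdh1 in epithelial-mesenchymal transition, had signals of 502 and 1147 in TCRgd CD8aa cells and 558.8 and 1483 in TCRab CD8aa cells, against 555.6 and 971.8 in TCRab CD8ab cells. Zeb1 was thus well above the floor in all 3 subsets, and its subsets overlapped.

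Of 12 epithelial transcription factors, 7 were on the array, 2 were tested, and limma called none in any subset comparison, with 1 at an unadjusted p under 0.05 for TCRgd CD8aa and 1 for TCRab CD8aa against TCRab CD8ab in the blocked fit. The share of all probe sets at that mark in the blocked fit was not counted. Klf4, a zinc finger factor of differentiated epithelium that T cells also express, had signals of 1272 and 5427 in TCRgd CD8aa cells and 1413 and 4153 in TCRab CD8aa cells, against 953.7 and 1803 in TCRab CD8ab cells. Klf5, of proliferating crypt epithelium, read 503.3 on the TCRgd CD8aa array of experiment 2 and at most 54 on the other 5, which is the pattern of the enterocyte genes.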
